A study of Mus musculus with 6 samples.

Results

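The genes described here are the 9 that encode the enzymes making serine from glucose and those passing its carbon through folate, namely Phgdh, Psat1 and Psph of serine synthesis, Shmt1 and Mthfd1 of the cytosolic folate arm, and Shmt2, Mthfd1l, Mthfd2 and Aldh1l2 of the mitochondrial folate arm. They were named as the members of this pathway, with earlier results of these data known, and were found by gene symbol among 55335 genes in the count tables. All 9 were among the 13642 genes that passed the filter on low counts. The RNA came from B16 (B16-BL6) cells, a mouse melanoma line, in culture. Of the 6 cultures, 3 were scrambled control and 3 were IFNγR1KO, in which Ifngr1, the ligand-binding chain of the interferon-gamma receptor, had been targeted in its first exon with CRISPR-Cas9. The sequencing was done to look for changes inside IFNγR1KO cells, such as activation of the PI3K-AKT-mTOR pathway, in a study of how loss of interferon-gamma signalling in melanoma affects tumour-infiltrating T cells and resistance to checkpoint blockade.

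Both groups had been transduced with lentiCRISPR v2, which carries Cas9, had been selected with puromycin, and were grown in the same supplemented minimal essential medium with no interferon added. The scrambled guide was aimed at GFP, and the labels give the genotype of the control cells as WT. The IFNγR1KO line was grown from single cells, and it is not given in the labels if all 3 IFNγR1KO cultures came from 1 clone or 1 guide. A difference between the groups therefore cannot be told apart from a difference between clones. The paper states that the cells of each group were plated as 3 cultures and left overnight before RNA was taken. The p-values thus measure the spread between such parallel cultures, not between separately made knockout lines. The medium contained non-essential amino acids, a supplement that includes serine and glycine.

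Serine synthesis branches from glycolysis, where PHGDH oxidises 3-phosphoglycerate, PSAT1 transfers an amino group to the product and PSPH removes the phosphate. Serine hydroxymethyltransferase then moves a carbon from serine to tetrahydrofolate and releases glycine, with SHMT1 working in the cytosol and SHMT2 in mitochondria. In mitochondria the carbon is oxidised and released as formate, which the cytosolic enzymes attach to folate again for the synthesis of purines, thymidylate and methionine. Many proliferating tumour cells use the mitochondrial arm as their main source of formate, and several of these genes are known targets of the transcription factor ATF4.

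The libraries held 9402640 to 10579788 counts on genes in the scrambled control group and 6698956 to 7409479 in the IFNγR1KO group, so that 1 count was worth 0.0966 to 0.109 and 0.135 to 0.142 CPM respectively. CPM are the counts of a gene for each 1000000 counts on genes, here scaled between libraries by TMM, a method that sets the bulk of genes equal. With counts thinned to the smallest library, 8 of the 9 genes were still called. Scrambled control 3 and IFNγR1KO 12 stood apart from their groups. The chi-square of the counts per degree of freedom was 20.4 and 22.7 between scrambled control 3 and the others of its group and 15 and 18.4 for IFNγR1KO 12, against 9.25 and 2.62 between the remaining pairs. Results are therefore also given without this pair of libraries, a choice made after the values were seen. Taking out the libraries that differ most lowers the spread by itself. Calls in that fit therefore do not make up for calls lost in others. Of 7 melanocyte markers, all were measured, led by Dct at 14420 CPM in scrambled control, and none was called. The 4 immune, 2 endothelial and 3 epithelial markers had at most 4 counts in any library. Ifngr1 (chr10:19591949-19610229, + strand) had 154, 144 and 172 counts in scrambled control and 80, 85 and 82 in IFNγR1KO. Its groups did not overlap in CPM, with a log2 fold change of -0.47 (SE 0.16) that missed the threshold (adjusted p = 0.0729 in edgeR's quasi-likelihood test). A frameshift in the first exon need not change the count of a transcript.

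Of the 9 genes, 6 were higher and 2 lower in IFNγR1KO cells at an adjusted p under 0.05 in edgeR's quasi-likelihood test, with only Mthfd1l not called. Across all genes tested, 15.3% were called, 7.73% as higher and 7.62% as lower. All 3 serine synthesis genes and 3 of the 4 mitochondrial genes rose, and both cytosolic genes fell. With a log2 fold change above 1 as a second condition, which makes a differentially expressed gene (DEG) by the thresholds of the study, Psph, Shmt2, Mthfd2 and Aldh1l2 were DEGs, against 3.25% of all genes as higher DEGs and 1.96% as lower DEGs. The libraries of the groups did not overlap in CPM for 8 of the 9 genes, as for 32.6% of all genes tested, and for 6 of them those of IFNγR1KO were the higher, as for 16% of all genes. RNA was taken from whole cultures, so fewer cells expressing a gene and less RNA per cell cannot be told apart. Each fold change is relative to all genes tested, whose median log2 fold change was -0.0015.

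**Figure D1:**
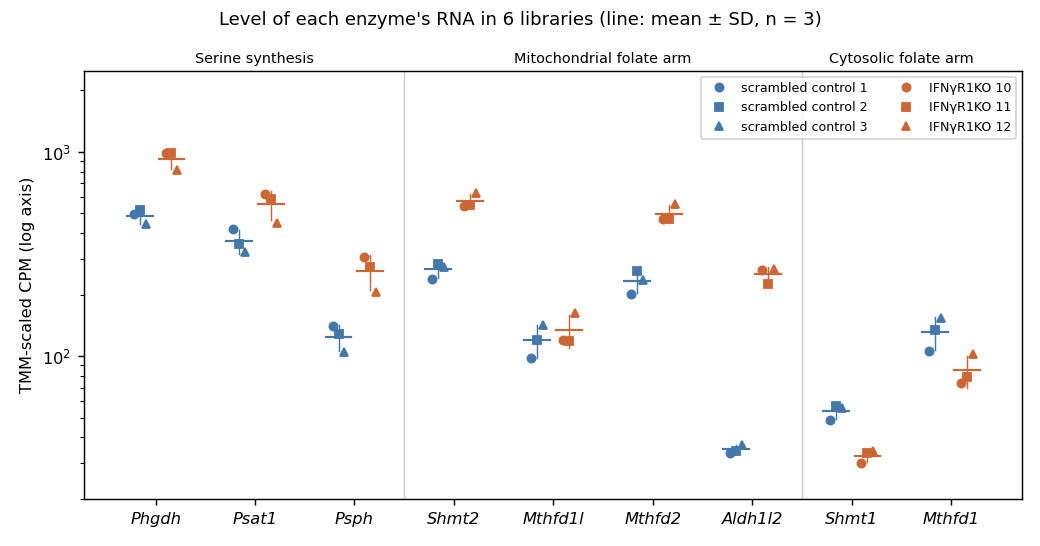
TMM-scaled CPM (log axis) of the 9 genes in each of the 6 libraries, with scrambled control in blue and IFNγR1KO in orange, the horizontal line at the group mean and the vertical line 1 SD to each side (n = 3). The groups are apart for every gene except Mthfd1l, with the orange points above the blue ones for 6 genes and below them for Shmt1 and Mthfd1.

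The stretches of DNA just before the transcription start are shown for 4 of the genes, 1 of serine synthesis and 3 of the mitochondrial arm, because Phgdh, Mthfd2 and Shmt2 rose by similar folds and Mthfd1l was not called. Each is the 250 bases upstream of the RefSeq start on GRCm38.p6, written 5′ to 3′ on the strand of the gene, with each CCAAT (or its complement ATTGG) in capitals. The windows lie at chr3:98339970-98340219 (- strand) for Phgdh, chr6:83317605-83317854 (- strand) for Mthfd2, chr10:127522445-127522694 (- strand) for Shmt2 and chr10:3972825-3973074 (+ strand) for Mthfd1l. In GENCODE M21 the last 21 bases of the Phgdh window and 2 bases of the Mthfd2 window are annotated as exon of the same gene, and the other 2 windows hold no exon.
Phgdh: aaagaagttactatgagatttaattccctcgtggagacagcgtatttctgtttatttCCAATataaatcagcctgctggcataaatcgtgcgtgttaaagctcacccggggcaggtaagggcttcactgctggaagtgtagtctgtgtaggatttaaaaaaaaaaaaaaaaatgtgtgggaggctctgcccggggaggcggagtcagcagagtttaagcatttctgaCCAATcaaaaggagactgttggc
Mthfd2: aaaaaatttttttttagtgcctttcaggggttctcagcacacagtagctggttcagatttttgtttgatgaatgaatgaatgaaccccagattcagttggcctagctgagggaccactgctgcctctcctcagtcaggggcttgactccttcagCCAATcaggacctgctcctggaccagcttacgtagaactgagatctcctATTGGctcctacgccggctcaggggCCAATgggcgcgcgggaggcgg
Shmt2: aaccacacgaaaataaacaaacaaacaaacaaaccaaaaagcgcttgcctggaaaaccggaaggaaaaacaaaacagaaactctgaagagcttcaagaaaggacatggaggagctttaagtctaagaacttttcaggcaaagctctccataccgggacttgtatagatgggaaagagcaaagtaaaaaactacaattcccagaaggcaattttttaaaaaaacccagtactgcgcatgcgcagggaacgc
Mthfd1l: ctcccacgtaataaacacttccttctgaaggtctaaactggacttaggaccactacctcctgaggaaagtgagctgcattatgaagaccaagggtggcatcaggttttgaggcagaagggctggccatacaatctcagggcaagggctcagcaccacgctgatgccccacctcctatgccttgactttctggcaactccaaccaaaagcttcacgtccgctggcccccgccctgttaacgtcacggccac

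The windows of 8 members, Psat1 with 2 start sites, were searched on both strands over 300 bases, from 250 before to 50 after the start. CCAAT, a short box near the start of many genes, was matched 2 times in Phgdh, 3 times in Mthfd2 and in the first window of Psat1, 2 times in Psph, 1 time each in Shmt1 and Mthfd1, and not in Shmt2, Mthfd1l or the second window of Psat1. Of 32851 windows in the table, 37.4% held at least 1 CCAAT and 11.7% held 2 or more. The genes that rose therefore included windows with 3 matches and, in Shmt2, a window with none. This motif was added after the windows had been read. TGATGNAAN, the element to which ATF4 binds together with C/EBP proteins, was in 3.95% of all windows and CACGTG, the E-box bound by MYC, in 7.15%, and neither was in a window of the members. These letters can lie elsewhere in a gene, and the search covers only these windows.

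PHGDH catalyses the committed step of serine synthesis, and its gene (chr3:98313170-98339990, - strand) had the highest level per length of the 9. Phgdh stood at 495, 520 and 442 CPM in scrambled control 1, 2 and 3 and at 985, 983 and 812 CPM in IFNγR1KO 10, 11 and 12. The lowest IFNγR1KO library was well above the highest control. The means were 486 ± 40.2 and 927 ± 99.3 CPM (SD, n = 3), a rise of 1.91-fold with a log2 fold change of 0.93 (SE 0.15, adjusted p = 0.0017 in edgeR's quasi-likelihood test). Phgdh has 13 processed pseudogenes at least 95% identical to it over 200 bases or more. They held 104 to 223 counts together, 2.28% to 3.14% of the count of Phgdh in the same library. Reads whose alignment was not unique, 3.76% to 4.61% of each library, were counted for no gene. The share of these that came from Phgdh is not known.

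PSAT1 makes phosphoserine, and Psat1 (chr19:15904678-15947337, - strand) showed the smallest rise of the 3 serine synthesis genes. It stood at 419, 353 and 322 CPM in scrambled control and at 621, 587 and 450 CPM in IFNγR1KO. The groups were separate by a narrow margin, between scrambled control 1 and IFNγR1KO 12. The means were 365 ± 49.8 and 553 ± 90.5 CPM (SD, n = 3), 1.52-fold higher, with a log2 fold change of 0.60 (SE 0.17, adjusted p = 0.0295 in edgeR's quasi-likelihood test). The call was lost without scrambled control 2 (adjusted p = 0.112 in edgeR), scrambled control 3 (0.0724), IFNγR1KO 10 (0.134) or IFNγR1KO 11 (0.125). Without scrambled control 3 and IFNγR1KO 12 together the log2 fold change was 0.65 (adjusted p = 0.000331 in edgeR). That pair was picked for its spread after the values were seen, so this p does not restore the call.

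PSPH releases free serine and completes the pathway. Psph (chr5:129765558-129787449, - strand) stood at 140, 128 and 104 CPM in scrambled control and at 306, 273 and 207 CPM in IFNγR1KO. Every IFNγR1KO library was above every control, and the means were 124 ± 18.3 and 262 ± 50.4 CPM (SD, n = 3). The rise was 2.11-fold, with a log2 fold change of 1.08 (SE 0.17, adjusted p = 0.00155 in edgeR's quasi-likelihood test). Exons of Cct6a on the other strand cover 10.4% of the exonic bases of Psph, and without a stated strand setting reads there cannot be told apart. Cct6a, a chaperonin subunit, had 2407 to 4715 counts per library, where Psph had 1080 to 2152. The part of the Psph count that came from the shared bases is not known. Cct6a had a log2 fold change of -0.11 (adjusted p = 0.724 in edgeR).

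SHMT2 is the mitochondrial serine hydroxymethyltransferase, through which serine enters the mitochondrial arm. Shmt2 (chr10:127517123-127522444, - strand) stood at 239, 283 and 275 CPM in scrambled control and at 546, 549 and 628 CPM in IFNγR1KO. The groups lay far apart relative to their spread. The means were 266 ± 23.3 and 574 ± 46.6 CPM (SD, n = 3), a rise of 2.16-fold with a log2 fold change of 1.11 (SE 0.14, adjusted p = 0.000401 in edgeR's quasi-likelihood test).

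MTHFD2 carries out the dehydrogenase and cyclohydrolase steps in mitochondria, and Mthfd2 (chr6:83305691-83325908, - strand) rose by nearly the same fold as Shmt2. It stood at 202, 262 and 237 CPM in scrambled control and at 466, 469 and 556 CPM in IFNγR1KO. The groups did not overlap, with means of 234 ± 30.1 and 497 ± 50.7 CPM (SD, n = 3). The rise was 2.13-fold, with a log2 fold change of 1.09 (SE 0.15, adjusted p = 0.000695 in edgeR's quasi-likelihood test).

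MTHFD1L is the synthetase that releases formate from 10-formyltetrahydrofolate, the last mitochondrial step. Mthfd1l (chr10:3973118-4167081, + strand) stood at 97.9, 120 and 142 CPM in scrambled control and at 121, 119 and 163 CPM in IFNγR1KO. The groups overlapped, and both libraries that stood apart were the highest of their group. The means were 120 ± 21.8 and 134 ± 24.9 CPM (SD, n = 3), with a log2 fold change of 0.16 (SE 0.17, adjusted p = 0.592 in edgeR's quasi-likelihood test). Without IFNγR1KO 12 the value was -0.0046 (adjusted p = 0.99 in edgeR).

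ALDH1L2 oxidises mitochondrial 10-formyltetrahydrofolate to carbon dioxide and makes NADPH, and its gene showed the largest change of the 9. Aldh1l2 (chr10:83487450-83534140, - strand) stood at 33.7, 34.3 and 36.9 CPM in scrambled control and at 263, 227 and 266 CPM in IFNγR1KO. The controls lay within a narrow range, far below every IFNγR1KO library. The means were 35.0 ± 1.72 and 252 ± 22.0 CPM (SD, n = 3), a 7.20-fold rise with a log2 fold change of 2.85 (SE 0.14, adjusted p = 1.4e-07 in edgeR's quasi-likelihood test). Of all genes tested, 33 (0.242%) had a larger log2 fold change. Exons of D10Wsu102e on the other strand cover 14.1% of its exonic bases, from which reads cannot be told apart without strand. D10Wsu102e had a log2 fold change of 0.46 (SE 0.13, adjusted p = 0.0322 in edgeR) and at most 672 counts in a library, where Aldh1l2 had 310 to 382 counts in scrambled control and 1673 to 1894 in IFNγR1KO.

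Both cytosolic genes among the members moved the other way. Aldh1l1, a cytosolic gene outside the members, was not called (log2 fold change 0.07, adjusted p = 0.833 in edgeR's quasi-likelihood test). SHMT1 is the cytosolic serine hydroxymethyltransferase, and Shmt1 (chr11:60788104-60811718, - strand) stood at 48.4, 57.0 and 55.8 CPM in scrambled control and at 29.8, 33.6 and 34.3 CPM in IFNγR1KO. All IFNγR1KO libraries were below all controls. The means were 53.7 ± 4.64 and 32.6 ± 2.40 CPM (SD, n = 3), 1.65-fold lower in IFNγR1KO, with a log2 fold change of -0.72 (SE 0.14, adjusted p = 0.00432 in edgeR's quasi-likelihood test).

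MTHFD1 joins the synthetase, cyclohydrolase and dehydrogenase activities of the cytosol in a single protein. Mthfd1 (chr12:76255298-76319803, + strand) stood at 106, 135 and 154 CPM in scrambled control and at 73.7, 79.1 and 103 CPM in IFNγR1KO. The groups were separate only narrowly, between scrambled control 1 and IFNγR1KO 12. The means were 132 ± 24.2 and 85.1 ± 15.3 CPM (SD, n = 3), 1.55-fold lower, with a log2 fold change of -0.63 (SE 0.17, adjusted p = 0.0276 in edgeR's quasi-likelihood test). The call was lost with scaling by total counts (adjusted p = 0.06 in edgeR) and without scrambled control 2 (0.102), scrambled control 3 (0.0626), IFNγR1KO 10 (0.121) or IFNγR1KO 11 (0.139). Without scrambled control 3 and IFNγR1KO 12 together the log2 fold change was -0.66 (adjusted p = 0.000939 in edgeR). As for Psat1, the choice of that pair lowers the spread, so this p does not restore the call.

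**Figure D2:**
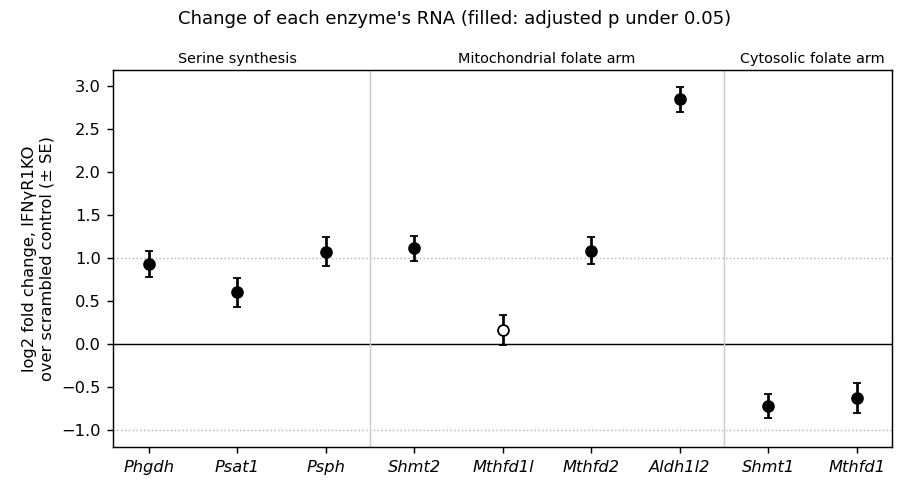
Log2 fold change of each gene, IFNγR1KO over scrambled control, from edgeR, with bars of 1 SE to each side, filled points for an adjusted p under 0.05 and dotted lines at 1 and -1. Aldh1l2 stands highest at 2.85, 5 further genes lie between 0.60 and 1.11, Mthfd1l is open near 0, and Shmt1 and Mthfd1 lie below 0.

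Ratios of 2 genes within a library do not depend on how libraries are scaled. The ratio of Shmt2 to Shmt1 counts was 4.94, 4.97 and 4.92 among scrambled control libraries, against 18.3, 16.3 and 18.3 among IFNγR1KO libraries. The control ratios lay closer together than counting noise alone would give, with 446, 573 and 577 Shmt1 counts in these libraries. Their SD is therefore no measure of precision. The mean rose from 4.94 ± 0.0218 to 17.6 ± 1.13 (SD, n = 3), a 3.56-fold difference of geometric means (exact two-sided permutation test, p = 0.1). With 3 libraries against 3, 0.1 is the smallest p this test can give. Leaving out any 1 library kept the difference of the log2 ratio between 1.81 and 1.89.

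The ratios of the other paired steps, both with Mthfd1 as the denominator, showed the same direction. They restate the fold changes of Mthfd2, Mthfd1l and Mthfd1 and are not separate results. The ratio of Mthfd2 to Mthfd1 was 1.91, 1.95 and 1.54 in scrambled control and 6.33, 5.93 and 5.42 in IFNγR1KO, a 3.29-fold difference (exact two-sided permutation test, p = 0.1). For the synthetases, the ratio of Mthfd1l to Mthfd1 was 0.923, 0.889 and 0.918 in scrambled control and 1.63, 1.502 and 1.59 in IFNγR1KO, a 1.73-fold difference (exact two-sided permutation test, p = 0.1). Mthfd1 counts exceeded Mthfd1l counts in every control and were the lower in every IFNγR1KO library, although Mthfd1l itself was not called. Within the mitochondrial arm, the ratio of Mthfd2 to Mthfd1l, looked at after the values were seen, was 2.07, 2.19 and 1.68 in scrambled control and 3.87, 3.95 and 3.42 in IFNγR1KO, a 1.90-fold difference (exact two-sided permutation test, p = 0.1). No ratio overlapped between the groups.

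**Figure D3:**
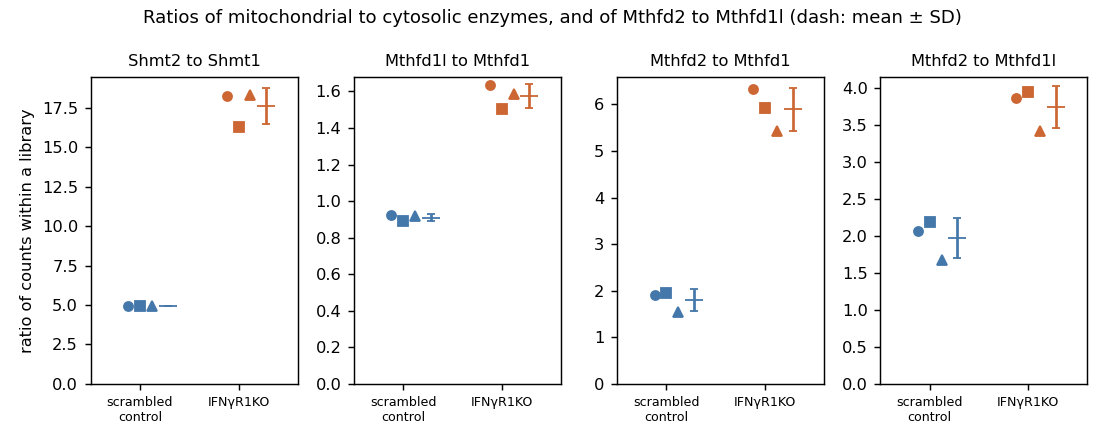
Ratio of the counts of 2 genes within each library, with scrambled control in blue and IFNγR1KO in orange, the dash beside the points at the group mean and the bar 1 SD to each side (n = 3), on axes that start at 0. The groups are apart in all 4 panels, most widely for Shmt2 to Shmt1.

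Levels were compared between genes as CPM, here without TMM scaling, divided by the kilobases of exons of the gene. Exons of all annotated transcripts were merged, and their length can exceed that of the transcript expressed. The order of the genes therefore also depends on this length. In scrambled control the mean levels per length ran from Phgdh (192) through Psat1 (84.0), Shmt2 (83.8), Mthfd2 (65.8), Mthfd1 (29.1), Psph (28.1), Mthfd1l (26.6) and Shmt1 (13.6) to Aldh1l2 (4.58). Libraries of neighbouring genes overlapped for Psat1 and Shmt2, for Mthfd1 and Psph, and for Psph and Mthfd1l, so these neighbours were not separated beyond their spread. In IFNγR1KO the order of mean levels per length was Phgdh (378), Shmt2 (188), Mthfd2 (145), Psat1 (131), Psph (61.1), Aldh1l2 (34.1), Mthfd1l (30.8), Mthfd1 (19.6) and Shmt1 (8.53), with overlap between Mthfd2 and Psat1 and between Aldh1l2 and Mthfd1l. Aldh1l2 was the lowest of the 9 in scrambled control and stood above Mthfd1 and Shmt1 in IFNγR1KO.

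Summed by arm, the level per length of serine synthesis was 304 ± 21.1 in scrambled control and 570 ± 52.3 in IFNγR1KO (SD, n = 3), 1.88 times as high. The mitochondrial arm summed to 181 ± 19.9 and 398 ± 53.9, 2.20 times as high. The cytosolic arm summed to 42.7 ± 7.10 and 28.1 ± 5.16, 0.657 times as high. These sums depend on the same exon lengths, describe the levels and were not tested, and the first is mostly Phgdh.

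Within a group, the serine synthesis genes and the folate genes mostly differed in the libraries where they were highest or lowest. Phgdh, Psat1 and Psph were all lowest in scrambled control 3 and all lowest in IFNγR1KO 12, the libraries that stood apart. The 6 folate genes of both arms were all highest in IFNγR1KO 12, and Mthfd1, Mthfd1l and Aldh1l2 were highest in scrambled control 3. Scrambled control 1 was the lowest of its group for all 6 folate genes and the highest for Psat1 and Psph. Scrambled control 2 was the highest for Phgdh as well as for Shmt1, Shmt2 and Mthfd2. How many of all genes tested were highest or lowest in each library was not counted. Without scrambled control 3 and IFNγR1KO 12, 8 of the 9 genes were called, 6 higher and 2 lower, and 4 were DEGs.

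**Figure D4:**
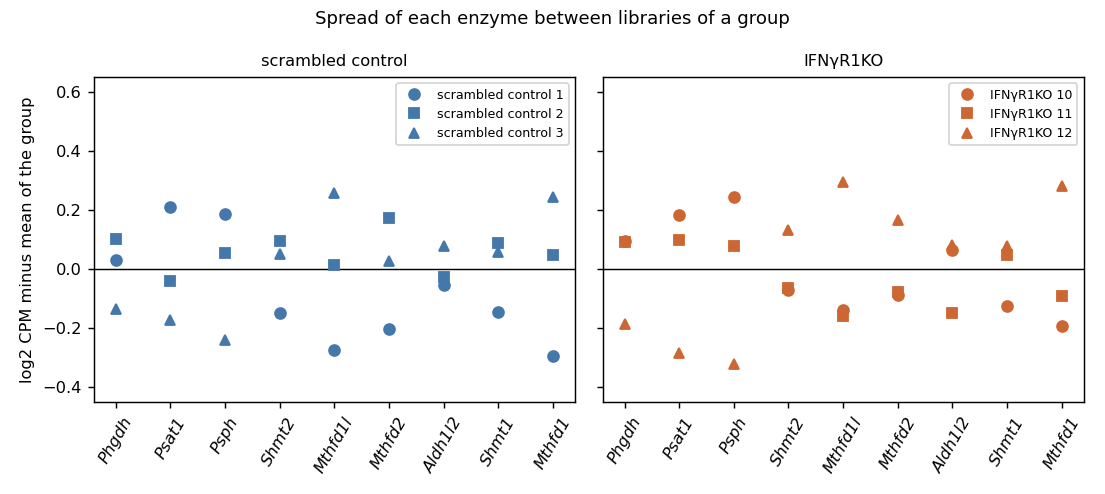
Log2 CPM of each gene minus the mean of its group, for scrambled control (left) and IFNγR1KO (right), with a symbol per library. The triangles, scrambled control 3 and IFNγR1KO 12, lie below 0 for Phgdh, Psat1 and Psph and above 0 for the 6 folate genes.

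Chromosome 10 holds Shmt2, Mthfd1l and Aldh1l2 as well as the targeted gene Ifngr1. The median log2 fold change of its 663 tested genes was -0.03. Among tested genes starting within 1 Mb, it was 0.15 around Aldh1l2 (14 genes, 2 called higher and 2 lower). It was -0.01 around Shmt2 (50 genes, 5 higher and 2 lower) and -0.15 around Mthfd1l (8 genes, 1 higher and 1 lower). Around Ifngr1 it was -0.27 (8 genes, of which 2 were called lower), where 15.3% of all genes tested were called. For the other 6 members it lay between -0.11 and 0.15, so the neighbours of Aldh1l2 and Shmt2 did not share the size of their changes.

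The wider pathway was described with lists of 43 further genes, of which 35 were tested. Of these 1 was called higher and 5 lower in IFNγR1KO, 17.1% against the 15.3% of all genes, and their median log2 fold change was -0.11 against -0.0015 over all genes. Over all genes 7.73% were called higher and 7.62% lower. Between 2 and 7 were called when 1 library was left out, with 3 without scrambled control 2, 3 without IFNγR1KO 10 and 2, 1 higher and 1 lower, without IFNγR1KO 11. Tyms and Cth were called in each of these. Without scrambled control 3 and IFNγR1KO 12 together 10 were called, 2 higher and 8 lower.

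Cth encodes cystathionine gamma-lyase, the last enzyme of transsulfuration, through which the carbons of serine can enter cysteine. Cth stood at 18.8, 16.4 and 13.6 CPM in scrambled control and at 94.2, 82.5 and 67.1 CPM in IFNγR1KO. The groups lay far apart, with a 5.00-fold rise and a log2 fold change of 2.32 (SE 0.17, adjusted p = 5.79e-06 in edgeR's quasi-likelihood test). It was the only DEG among the wider genes. Cbs, which makes cystathionine from serine and homocysteine, had 1 to 8 counts per library and was not tested. Among the other tested genes of the methionine cycle none was called in edgeR with all libraries. Ahcy, which hydrolyses S-adenosylhomocysteine, had a log2 fold change of -0.43 (adjusted p = 0.053 in edgeR), and was called by DESeq2, with no filter on low counts and without scrambled control 3 and IFNγR1KO 12. Mat2a, which makes S-adenosylmethionine, was also called without that pair, and had a log2 fold change of -0.36 with all libraries (adjusted p = 0.185 in edgeR).

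Of the 4 tested genes of thymidylate synthesis and other folate use, only Tyms was called. TYMS makes thymidylate from deoxyuridylate with a folate-bound carbon. Tyms stood at 204, 199 and 149 CPM in scrambled control and at 106, 121 and 88.3 CPM in IFNγR1KO. The groups did not overlap, and the fall was 1.75-fold, with a log2 fold change of -0.81 (SE 0.17, adjusted p = 0.00644 in edgeR's quasi-likelihood test).

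De novo purine synthesis uses 10-formyltetrahydrofolate from the cytosol. All 6 genes tested had a negative log2 fold change, from -0.65 to -0.05, and 3 were called lower, where 6848 of the 13642 genes tested had a negative value and 7.62% were called lower. These were Ppat, which starts the pathway (-0.65, SE 0.15, adjusted p = 0.0104 in edgeR), Gart, which carries a formyl transfer step (-0.54, SE 0.14, adjusted p = 0.0206), and Paics (-0.48, SE 0.13, adjusted p = 0.0304). The call of Ppat was lost without IFNγR1KO 11, that of Gart without scrambled control 2, IFNγR1KO 10 or IFNγR1KO 11, and that of Paics without any 1 library but scrambled control 3. Exons of Gm15964 on the other strand cover 19.7% of the exonic bases of Gart. Ppat and Paics overlap each other on opposite strands, over 6.15% of the exonic bases of Ppat and 8.67% of those of Paics, and reads there cannot be told apart without strand.

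Of the remaining lists, folate uptake had 12.5% of its tested genes called, against 15.3% of all genes. The others are short and held no call with all libraries. Of 8 tested genes of folate uptake, carriers and retention, only Sfxn2, a sideroflexin of the mitochondrial membrane, was called (log2 fold change -0.54, SE 0.15, adjusted p = 0.0286 in edgeR), and the call was lost with scaling by total counts and without scrambled control 1, scrambled control 2, IFNγR1KO 10 or IFNγR1KO 11. None of 4 tested genes of glycine cleavage and mitochondrial formyl use was called in edgeR with all libraries. Among them Dld, the dihydrolipoamide dehydrogenase shared with other complexes, had a log2 fold change of 0.41 (adjusted p = 0.0606 in edgeR) and groups that did not overlap, and was called by DESeq2, with scaling by total counts, without IFNγR1KO 12 and without scrambled control 3 and IFNγR1KO 12. Gldc, the glycine decarboxylase, had at most 2 counts in any library. None of 6 tested genes of other serine use was called in edgeR. The paralogs of members gave no call, with Aldh1l1, the cytosolic counterpart of Aldh1l2, at a log2 fold change of 0.07 (adjusted p = 0.833 in edgeR) and Mthfd2l, a second mitochondrial dehydrogenase, at -0.38 on 6 to 18 counts per library (adjusted p = 0.604).

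**Figure D5:**
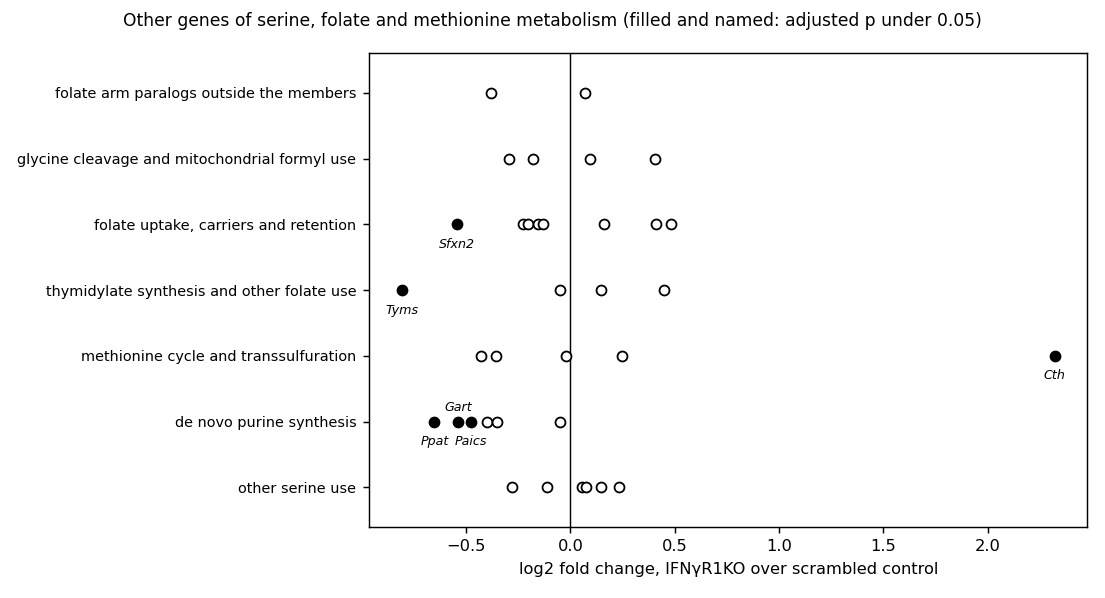
Log2 fold change, IFNγR1KO over scrambled control, of the 35 tested genes of the wider lists, 1 point per gene and 1 line per list, filled and named where the adjusted p in edgeR was under 0.05. Cth lies far to the right of 0, and the 5 other named genes lie to the left.

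Of 3 transcription factors known to act on these genes, Atf4 was called. ATF4 is translated under amino acid and other stress and activates serine synthesis and mitochondrial folate genes. Atf4 stood at 518, 605 and 453 CPM in scrambled control and at 1231, 1171 and 1050 CPM in IFNγR1KO, with no overlap (log2 fold change 1.13, SE 0.16, adjusted p = 0.000748 in edgeR's quasi-likelihood test). Myc had a log2 fold change of -0.38 (adjusted p = 0.0723 in edgeR), and -0.37 without scrambled control 3 and IFNγR1KO 12 (adjusted p = 0.0298). Nfe2l2, which encodes NRF2, had a log2 fold change of 0.09 (adjusted p = 0.73 in edgeR). The part of any of these factors in the levels of the enzymes was not tested.

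The mean profile of the 4 mitochondrial genes over the 6 libraries was compared with that of 9617 genes of at least 10 CPM. The closest were Aars, which encodes alanyl-tRNA synthetase (Pearson r = 0.9993), N4bp1 (0.9974), Tars, which encodes threonyl-tRNA synthetase (0.9971), Rnf185 (0.9967) and AU040320 (0.9965). The 6 libraries fall into the 2 groups, so r takes up the difference between them, and 193 genes had an r above 0.95. Aars stood at 258, 343 and 357 CPM in scrambled control and at 575, 569 and 761 CPM in IFNγR1KO. Like all 4 mitochondrial genes it was lowest in scrambled control 1 and highest in IFNγR1KO 12, which follows from its choice by r.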

How the data were processed

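RNA of 3 scrambled control and 3 IFNγR1KO cultures of B16 cells was sequenced as paired ends after poly(A) selection. The authors aligned reads to GRCm38 with STAR 2.7.5a and counted them per gene with htseq-count (HTSeq 0.11.2), and the deposited values are these raw counts, not normalized. The annotation release and strand setting are not given in the sources used here. Of the counted reads, 46.9% to 47.7% per library fell on no gene and 46% to 47% on genes. The effect of the strand setting on these shares was not tested. Reads on no gene and the other 4 summary lines were kept out of library sizes.

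All further steps were run in R 4.3.3 and Python. Symbols, positions and exonic lengths came from GENCODE M21, which holds 55154 of 55335 identifiers. edgeR 4.0.16 was used on all genes (filterByExpr with a minimum count of 10 and a minimum total of 15, TMM, quasi-likelihood test, Benjamini-Hochberg over 13642 genes, called under 0.05) and was tested on simulated data. The study's DEG thresholds and design were used, with DESeq2 1.42.0, limma-voom (limma 3.58.1), other scaling and filters, thinned counts and fits without each library as alternatives. Ratios were compared by exact permutation over libraries.

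The members and lists were chosen with earlier results of these data known. Some genes of the wider lists are not reported here. Genes named are the members, their paralogs, Ifngr1, 3 regulators, up to 3 called genes per list and direction, and the 5 genes of the most similar profile; Cbs, Ahcy, Mat2a, Dld, Gldc and overlapping genes were named after their values were seen. Promoter windows came from RefSeq (GRCm38.p6) and covered 8 of the 9 members. Precision was limited by 3 libraries a group, and each member had at least 210 counts in every library. For Shmt1 in IFNγR1KO (210 to 248 counts) and Aldh1l2 in scrambled control (310 to 382) counting noise also limited it.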

Additional observations from a re-analysis of the deposited data

How the results depend on the processing

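The count of members called was 8 under DESeq2, limma-voom, RLE size factors, no filter on low counts and thinned counts, and 7 with scaling by total counts. Against a log2 fold change of 1 as the null value (glmTreat) it was 1, Aldh1l2. Leaving out 1 library gave 6 to 8 members called and 3 to 4 DEGs, and 2 to 7 of the wider pathway genes, of which 6 were called with all libraries and 6 to 8 under DESeq2, RLE size factors, scaling by total counts and no filter, the alternatives run for them. Ifngr1 stayed between -0.54 and -0.43 without 1 library and was called in none of its alternatives. Values changed sign for genes that were not called, Mthfd1l at -0.0046 without IFNγR1KO 12 (leaving out 1 library, -0.0046 to 0.2995), and Aldh1l1 at -0.032 without scrambled control 1 and -0.0519 without IFNγR1KO 12 (-0.0519 to 0.2067). The cause of these changes was not tested. Fits without scrambled control 3 and IFNγR1KO 12 together, the ratio of Mthfd2 to Mthfd1l and the CCAAT search were chosen after seeing the data, and that fit called 10 of the wider genes, 2 higher and 8 lower. Scaling by total counts moved the median log2 fold change of all genes from -0.0015 to 0.048. No paired analysis was possible because the replicate numbers of the groups, 1 to 3 and 10 to 12, share none. Gldc, Cbs and 6 other genes of the wider lists had too few counts to be tested.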
